A study of Mus musculus with 24 samples.

Results

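Immediate early genes are transcribed within minutes of a stimulus, from factors already present in the cell, and most of their transcripts are short-lived. In liver they are known for their response to partial hepatectomy, fasting hormones, cytokines and tissue injury. The 10 genes described here are Fos, Jun, Junb, Egr1, Atf3, Ier2, Ier3, Dusp1, Myc and Klf6. They were taken by name from the array, with every probe that carries the gene's symbol, and make up 10 of the 21331 genes tested. They were read by 14 probes, of which 12 passed the filter on dim probes, and all 10 genes had at least 1 such probe.

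Livers came from 24 male C57Bl/6J mice, 6 in each of 4 groups, with 1 single-colour array per mouse. LWT mice express PPARα, a nuclear receptor for fatty acids, in their hepatocytes, and LKO mice do not. The sample labels give LWT and LKO without expansion, and the hepatocyte reading was taken from the series title. Other liver cells of LKO mice are not described. The Cre driver, the age and the litters were not given in the sources used here, so p-values measure the spread between these mice. Treatment was the beta3 adrenergic agonist CL316243 (3 mg/kg) or its vehicle, 0.5% carboxymethyl cellulose in water. Either was given by gavage at Zeitgeber time 10 h, in the light phase, and all mice were killed at Zeitgeber time 16 h, in the dark phase. All 4 groups had free access to standard diet. The comparisons ask what the agonist does in each genotype and whether hepatocyte PPARα alters it.

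Levels are log2 signal against the upper quartile (the 75th percentile) of the same array, so 1 unit is a factor of 2 and a negative level is a signal under that quartile. A difference was called at an adjusted p under 0.05 in limma's test over all 21331 genes, with Benjamini-Hochberg adjustment. Levels of different genes were not set against each other, because probes differ in their response. Between 26985 and 34202 probes were well above background per array, and no spot was saturated. The Ppara probe, read as a check of the genotype labels, lay at 5.45 to 5.93 in LWT vehicle and 4.81 to 5.18 in LKO vehicle, and at 5.70 to 6.42 and 3.06 to 4.85 under CL316243. Whether this probe lies in the deleted stretch is not given in the sources used here.

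A few libraries lay at the edge of their group for most of these genes. LKO CL316243 replicate 3 was the highest of its group for 9 of the 10 genes, all but Dusp1, and had 27921 probes above background, the fewest of its group. The main results that rest on it are given with and without it. In LWT CL316243, replicate 1 was highest for 8 genes and had 26985 probes above background, the fewest of any array. Replicate 4 of that group was lowest for 9 genes, and in LWT vehicle replicate 3 was highest for 8.

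Immediate early promoters hold short elements at which constitutive factors act. RefSeq promoters (build GRCm38.p6) were matched for 7 of the 10 genes. The 200 bases before the start of 4 of them are printed below: Fos (chr12:85473690-85473889, plus strand), Jun (chr4:95052223-95052422, minus strand), Dusp1 (chr17:26508473-26508672, minus strand) and Klf6 (chr13:5861289-5861488, plus strand). Capitals mark, on either strand, the TATA box (TATAAA), the cAMP response element (TGACGTCA), the first part of that element (TGACG), the E-box (CACGTG) and the CCAAT box.
Fos: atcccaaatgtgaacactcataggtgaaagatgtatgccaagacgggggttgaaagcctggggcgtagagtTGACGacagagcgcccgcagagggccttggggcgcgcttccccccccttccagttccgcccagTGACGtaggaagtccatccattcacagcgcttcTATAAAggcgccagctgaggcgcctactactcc
Jun: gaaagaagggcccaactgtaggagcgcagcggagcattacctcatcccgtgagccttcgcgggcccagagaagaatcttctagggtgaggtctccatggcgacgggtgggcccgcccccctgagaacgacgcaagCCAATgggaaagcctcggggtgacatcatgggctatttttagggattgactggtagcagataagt
Dusp1: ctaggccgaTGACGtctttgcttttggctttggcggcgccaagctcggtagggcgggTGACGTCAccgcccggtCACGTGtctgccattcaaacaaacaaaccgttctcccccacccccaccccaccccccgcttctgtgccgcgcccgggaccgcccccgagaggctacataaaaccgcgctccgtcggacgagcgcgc
Klf6: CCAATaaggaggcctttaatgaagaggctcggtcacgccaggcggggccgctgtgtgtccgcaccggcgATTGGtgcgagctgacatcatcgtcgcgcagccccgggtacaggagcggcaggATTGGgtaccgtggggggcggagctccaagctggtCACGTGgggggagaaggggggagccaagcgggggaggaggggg

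Motifs were searched in the 250 bases before each start, on both strands, and their share among all 32851 RefSeq promoters was counted the same way. TATAAA was present in Fos, at bases -33 to -28, and in 12.4% of all promoters. The full cAMP response element TGACGTCA was present in Dusp1, at -143 to -136, and in 1.55% of all. Its first part TGACG, which also lies inside the full element, was present in Fos, Junb, Atf3 and Dusp1, against 17.8% of all. Fos held it at -66 to -62 and at -129 to -125. CACGTG was present in Dusp1 and Klf6 (6.02% of all), CCAAT in Jun, Junb, Ier3 and Klf6 (33.8%) and the GC box GGGCGG in 6 of the 7 (32.7%). The letters of TGANTCA (6.75% of all), the CArG box (1.47%) and GCGGGGGCG (2.57%) were not in these windows of the 7 genes. A match is a stretch of letters and was not measured as a bound site.

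With CL316243 in LWT livers, 9 of the 10 genes were called higher and 0 lower (0 lower also at an unadjusted p under 0.05), with a median log2 change of 1.53. Over all genes tested, 18.9% were called higher and 19.4% lower in that comparison, and the median change was 0.0092. With CL316243 in LKO livers, 8 of the 10 were called higher and 0 lower, with a median of 2.30, against 20.9% higher, 19.4% lower and a median of 0.027 over all genes. Without LKO CL316243 replicate 3, the counts were again 9 and 8, and the LKO median was 1.88. Without LWT CL316243 replicate 1 the LWT count was 5, with Fos, Junb, Atf3 and Dusp1 no longer called. The gene not called in LWT was Ier2, and those not called in LKO were Ier2 and Myc.

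**Figure D1:**
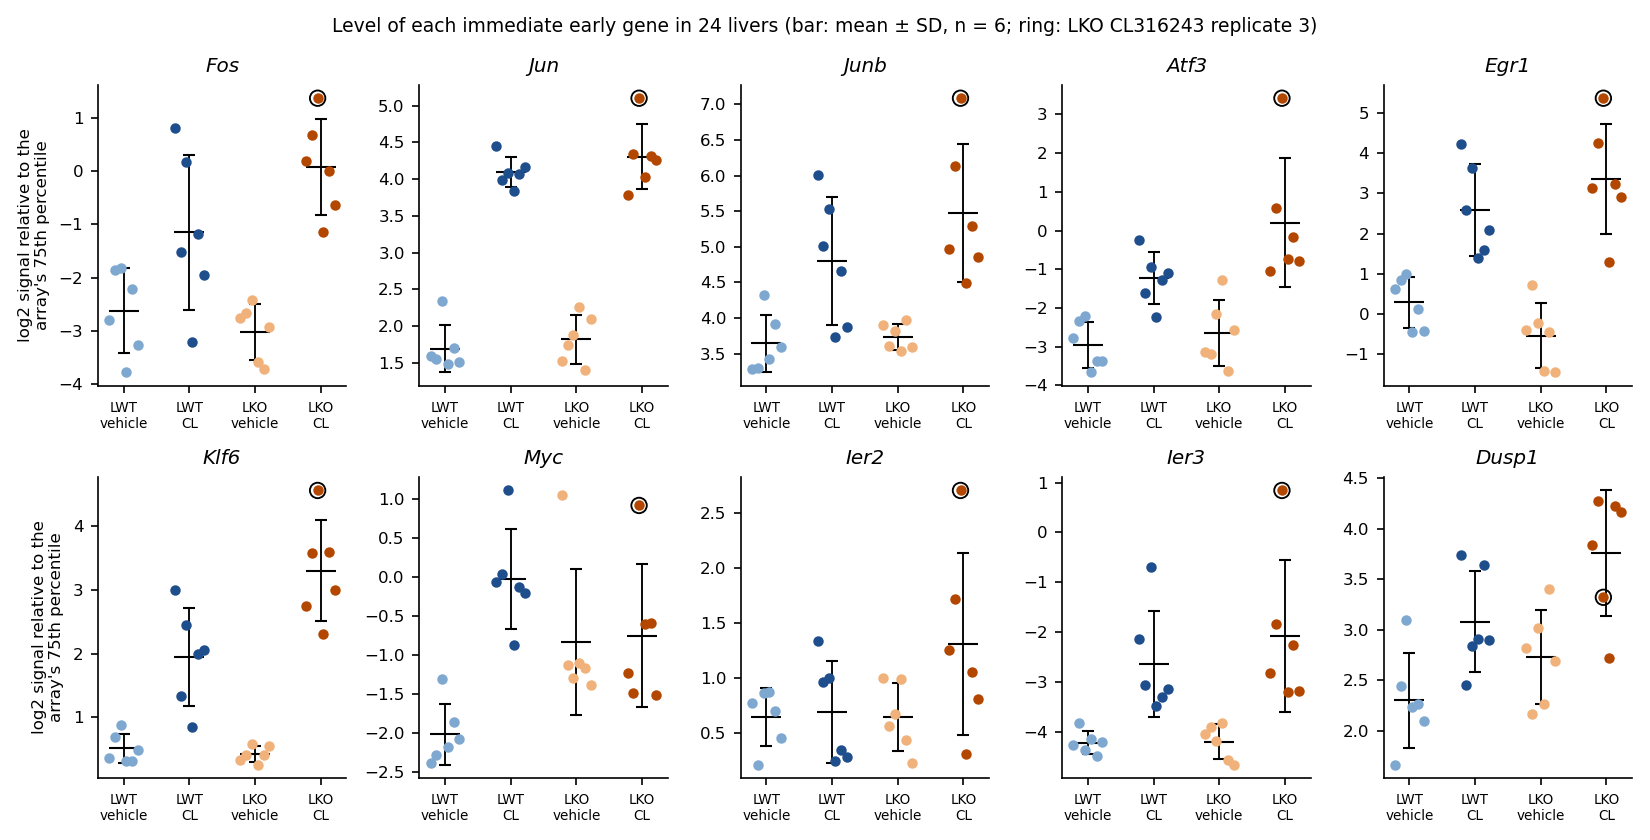
Each panel shows 1 gene, with 1 point per liver, the 4 groups along the horizontal axis and the level, on the log2 scale defined above, on the vertical axis, which differs between panels. Horizontal lines are group means, bars are SD (n = 6), and the ring marks LKO CL316243 replicate 3, the highest of its group in every panel but Dusp1. The 12 Jun points under CL316243 lie at 3.79 to 5.10 and the 12 under vehicle at 1.40 to 2.34.

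The AP-1 family is described first. Jun and Fos are the classic subunits of the dimeric AP-1 factor, Junb is a second Jun protein, and Atf3 is a stress-induced relative that dimerises with Jun proteins. All 4 are basic leucine zipper proteins.

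Jun (probe on chromosome 4, 94716928 to 94716987, mm9, as all probe positions here) had the smallest standard error of the 10 genes. Its level ran from 1.48 to 2.34, median 1.57, in LWT vehicle and from 3.84 to 4.46, median 4.07, in LWT CL316243. The LKO livers lay at 1.40 to 2.26, median 1.81, under vehicle and at 3.79 to 5.10, median 4.29, under CL316243. Every treated liver was above every vehicle liver in both genotypes, a separation seen for 20.4% of all genes in LWT and 20.8% in LKO. The log2 change was 2.40 ± 0.19 (SE, adjusted p 2.19e-09, 5.29-fold) in LWT and 2.49 ± 0.19 (adjusted p 9.84e-09, 5.61-fold) in LKO. The difference between both changes was 0.085, with a 95% confidence interval of -0.47 to 0.64 (adjusted p 0.910). Without LKO CL316243 replicate 3 it was -0.074. Within the 3 slides, the change was 2.08, 2.46 and 2.67 in LWT and 2.73, 2.40 and 2.34 in LKO.

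Fos (chromosome 12, 86818118 to 86818177) varied far more between treated LWT livers. LWT vehicle livers lay at -3.78 to -1.81, median -2.50, and LWT CL316243 livers at -3.21 to 0.81, median -1.35. In LKO, the ranges were -3.72 to -2.42, median -2.85, under vehicle and -1.15 to 1.37, median 0.094, under CL316243. The LWT ranges overlapped, with 2 treated livers (replicates 4 and 6) below the highest vehicle liver, while the LKO ranges did not overlap. Fos rose by 1.48 ± 0.54 in LWT (SE, adjusted p 0.0341, 2.78-fold) and by 3.10 ± 0.54 in LKO (adjusted p 0.000104, 8.56-fold). The LWT call was lost when any of 6 LWT livers was left out. The change was then 1.09 without CL316243 replicate 1 (adjusted p 0.101), 1.21 without replicate 3 (adjusted p 0.0933) and 1.48 without replicate 5 (adjusted p 0.0514). It was 1.44, 1.24 and 1.35 without vehicle replicates 1, 4 and 6 (adjusted p 0.0579, 0.0869 and 0.0712). The LKO change was 2.84 without LKO CL316243 replicate 3 (adjusted p 0.000360). Within slides the LWT change was -0.041, 1.66 and 2.81, and the LKO change 3.71, 2.50 and 3.08.

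Junb was read by 3 probes. The brightest (chromosome 8, 87500843 to 87500902) lay at 3.29 to 4.33, median 3.52, in LWT vehicle and at 3.74 to 6.01, median 4.84, in LWT CL316243. LKO levels were 3.54 to 3.97, median 3.72, under vehicle and 4.49 to 7.08, median 5.13, under CL316243. Only the LKO ranges were apart. Junb rose by 1.16 ± 0.38 in LWT (SE, adjusted p 0.0202, 2.23-fold) and by 1.73 ± 0.38 in LKO (adjusted p 0.00108, 3.31-fold). Without LKO CL316243 replicate 3 the LKO change was 1.41 (adjusted p 0.00261). The LWT call was lost without LWT CL316243 replicate 1 (0.92, adjusted p 0.0611) and without replicate 3 (1.01, adjusted p 0.0534). A second probe on the same transcript (87501881 to 87501940) was well above background on 2 of 6 arrays in each vehicle group, 4 of 6 in LWT CL316243 and 6 of 6 in LKO CL316243, so no fold is given for it. The third (87496635 to 87496694), matched to another transcript record, was above background on 1 of 6 arrays in every group and did not pass the filter.

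Atf3 (chromosome 1, 192994547 to 192994606) followed a similar order of groups. Levels were -3.67 to -2.21, median -3.07, in LWT vehicle and -2.23 to -0.23, median -1.18, in LWT CL316243, an overlap by 1 liver. In LKO they were -3.63 to -1.27, median -2.85, under vehicle and -1.04 to 3.42, median -0.46, under CL316243, with no overlap. Atf3 rose by 1.73 ± 0.57 in LWT (SE, adjusted p 0.0204, 3.31-fold) and by 2.86 ± 0.57 in LKO (adjusted p 0.000416, 7.28-fold). LKO CL316243 replicate 3, at 3.42, was far above the next liver of its group at 0.58. Without it the LKO change was 2.22 (adjusted p 0.000212), and the LKO minus LWT change was 0.49, against 1.14 with it (adjusted p 0.506). The LWT call was lost without LWT CL316243 replicate 1 (1.53, adjusted p 0.0517).

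Egr1 and Klf6 are zinc finger transcription factors. Egr1 is the standard reporter of mitogen-activated kinase signalling, and Klf6 is a Krüppel-like factor induced in liver after injury and during regeneration.

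Egr1 had the largest LKO change of the 10 genes. It lay at -0.45 to 1.0, median 0.37, in LWT vehicle and at 1.40 to 4.23, median 2.34, in LWT CL316243. LKO vehicle livers lay at -1.45 to 0.71, median -0.43, and LKO CL316243 livers at 1.28 to 5.36, median 3.19. Treated and vehicle livers did not overlap in either genotype. Egr1 rose by 2.30 ± 0.56 in LWT (SE, adjusted p 0.00256, 4.92-fold) and by 3.90 ± 0.56 in LKO (adjusted p 1.45e-05, 15.0-fold). The difference of 1.61 was not called (adjusted p 0.293), and its 95% confidence interval ran from -0.047 to 3.26. By slide it was 4.19, 0.51 and 0.12, and without LKO CL316243 replicate 3 it was 1.21 (adjusted p 0.380). The LKO change was then 3.50 (adjusted p 3.33e-05).

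Klf6 (chromosome 13, 5869371 to 5869430) was tight under vehicle, at 0.31 to 0.88, median 0.43, in LWT and at 0.26 to 0.59, median 0.41, in LKO. Treated livers lay at 0.84 to 3.00, median 2.03, in LWT and at 2.31 to 4.56, median 3.29, in LKO. In LWT 1 treated liver, replicate 4, fell inside the vehicle range, and in LKO none did. Klf6 rose by 1.44 ± 0.31 in LWT (SE, adjusted p 0.000920, 2.71-fold) and by 2.88 ± 0.31 in LKO (adjusted p 6.00e-07, 7.35-fold). Without LKO CL316243 replicate 3 the LKO change was 2.62 (adjusted p 8.06e-07).

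Myc, a basic helix-loop-helix factor that drives growth and ribosome production, showed another order of groups. Its brightest probe (chromosome 15, 61821417 to 61821476) lay at -2.38 to -1.30, median -2.13, in LWT vehicle and at -0.87 to 1.11, median -0.090, in LWT CL316243. LKO vehicle livers lay at -1.38 to 1.06, median -1.14, and LKO CL316243 livers at -1.51 to 0.92, median -0.91. The LWT ranges did not overlap, and the LKO ranges covered each other almost fully. Myc rose by 1.99 ± 0.41 in LWT (SE, adjusted p 0.000592, 3.98-fold), and its change in LKO was 0.085 (95% confidence interval -0.78 to 0.95, adjusted p 0.889). Without LKO CL316243 replicate 3 the LKO change was -0.25 (adjusted p 0.648). A second probe on the same transcript, at 61820925 to 61820984, gave 3.14-fold in LWT (adjusted p 0.00178) and 0.959-fold in LKO (adjusted p 0.917).

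The last 3 genes are not DNA-binding factors of these families. Ier2 is a nuclear protein of the early growth response, Ier3 a small stress-induced regulator of cell survival, and Dusp1 a phosphatase that switches off mitogen-activated kinases.

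Ier2 (chromosome 8, 87185211 to 87185245) lay at 0.21 to 0.87, median 0.73, in LWT vehicle and at 0.24 to 1.33, median 0.65, in LWT CL316243. LKO livers lay at 0.22 to 0.995, median 0.61, and at 0.31 to 2.70, median 1.15. All 4 ranges overlapped. The change was 0.047 in LWT (95% confidence interval -0.54 to 0.64, adjusted p 0.919) and 0.66 in LKO (0.072 to 1.25, adjusted p 0.0682), or 0.38 without LKO CL316243 replicate 3 (adjusted p 0.205). It was called without LKO CL316243 replicate 4 (0.86, adjusted p 0.0138) and without replicate 6 (0.76, adjusted p 0.0456). A further Ier2 probe, on another transcript record, was above background on 1 to 3 arrays per group and did not pass.

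Ier3 (chromosome 17, 35959528 to 35959587) was dim under vehicle, at -4.50 to -3.83, median -4.25, in LWT and at -4.66 to -3.82, median -4.12, in LKO, where 4 of 6 arrays were well above background. Treated livers lay at -3.48 to -0.69, median -3.10, in LWT and at -3.21 to 0.84, median -2.55, in LKO, with no overlap in either genotype. Ier3 rose by 1.58 ± 0.52 in LWT (SE, adjusted p 0.0201, 3.00-fold) and by 2.12 ± 0.52 in LKO (adjusted p 0.00263, 4.35-fold). Without LKO CL316243 replicate 3 the LKO change was 1.54 (adjusted p 0.00270), and with normexp background correction it was 1.22, still called. The LWT call was lost without LWT CL316243 replicate 3 (1.19, adjusted p 0.0631). It was also lost with normexp background correction, at 0.81 (adjusted p 0.0873), and with the authors' series table, at 0.98 (adjusted p 0.0669).

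Dusp1 (chromosome 17, 26642624 to 26642683) moved least of the genes called. It lay at 1.67 to 3.10, median 2.25, in LWT vehicle and at 2.45 to 3.74, median 2.91, in LWT CL316243. In LKO the ranges were 2.17 to 3.40, median 2.76, and 2.72 to 4.28, median 4.00. Groups overlapped in both genotypes. Dusp1 rose by 0.78 ± 0.29 in LWT (SE, adjusted p 0.0354, 1.71-fold) and by 1.03 ± 0.29 in LKO (adjusted p 0.00632, 2.04-fold). The LWT call was lost when any of 6 LWT livers was left out (vehicle replicates 1, 4, 5 and 6, CL316243 replicates 1 and 5), with adjusted p of 0.0559 to 0.0916.

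**Figure D2:**
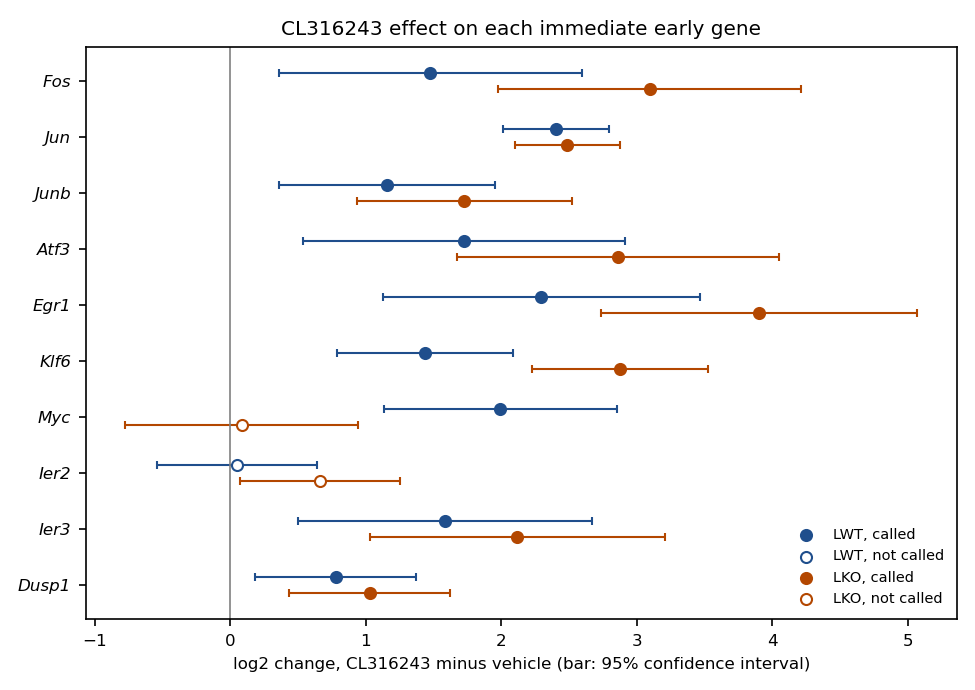
Points are the log2 change with CL316243 against vehicle for each gene, in LWT (blue) and LKO (orange), and bars are 95% confidence intervals from the fit over all genes. Filled points were called at an adjusted p under 0.05. The open points are Ier2 in both genotypes and Myc in LKO.

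Under vehicle, LKO against LWT gave 0 of 10 called in limma's test (1 at an unadjusted p under 0.05, Myc), against 0.398% of all genes called higher and 0.778% lower. Myc was 1.18 higher in LKO (SE 0.41, adjusted p 0.296), and its groups overlapped through LWT vehicle replicate 3 at -1.30. By slide that difference was 0.35, 2.29 and 0.89. Without LKO vehicle replicate 1, which lay on slide 2 at 1.06, the Myc difference was 0.80, not called. None of the other 9 genes passed, with changes from -0.83 (Egr1) to 0.42 (Dusp1) and adjusted p of 0.826 to 0.999. No gene of the 10 had separate groups under vehicle, against 1.8% of all genes.

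Under CL316243, 1 of 10 was called higher in LKO than in LWT and 0 lower (5 and 0 at an unadjusted p under 0.05), against 7.74% higher and 8.17% lower over all genes. The gene was Klf6, 1.35 ± 0.31 higher in LKO (SE, adjusted p 0.00408, 2.55-fold), and 1.10 without LKO CL316243 replicate 3 (adjusted p 0.00857). Its groups overlapped, and no gene of the 10 had separate groups, against 6.57% of all genes. The call was lost when the 12 treated arrays were fitted alone (adjusted p 0.0594). Slide 1 held LKO CL316243 replicates 2 and 3 and LWT CL316243 replicates 4 and 6. Of these livers, LKO replicate 3 was highest of its group for 9 genes, and LWT replicate 4 was lowest of its group for 9. For all but Dusp1 and Myc, the difference between treated genotypes was larger in size on slide 1 than on the other slides. Klf6 gave 2.62, 0.98 and 0.45 on the 3 slides, Fos 3.61, 0.45 and -0.39, and Junb 2.80, -0.36 and -0.44, while Dusp1 gave 0.89, 1.35 and -0.22 and Myc 0.26, -1.95 and -0.50. Without LKO CL316243 replicate 4, 3 genes were called higher, Klf6 with Dusp1 (0.88, adjusted p 0.0282) and Ier2 (0.82, adjusted p 0.0444). Without LWT CL316243 replicate 1, Fos was called beside Klf6 (1.61, adjusted p 0.0333).

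The genotype by treatment interaction, the LKO change minus the LWT change, was called for 0 of 10 genes in limma's test (3 at an unadjusted p under 0.05), against 2.17% of all genes higher and 3.24% lower. The nearest were Myc at -1.91 ± 0.59 (SE, adjusted p 0.0607) and Klf6 at 1.44 ± 0.44 (adjusted p 0.0618). Both stood close to the threshold, and alternatives moved them across it. Myc was called without LKO CL316243 replicate 3 (-2.24, adjusted p 0.00946) and without LWT CL316243 replicate 4 (-2.08, adjusted p 0.0421). Without LKO vehicle replicate 1, a high liver on slide 2, the Myc interaction was smaller in size, at -1.53, and not called. The second Myc probe gave -1.71 (adjusted p 0.0680), and within slides the brightest probe gave -0.096, -4.24 and -1.39. Klf6 was called with normexp background correction (adjusted p 0.0473), with the authors' series table (adjusted p 0.0327) and without LWT CL316243 replicate 1 (adjusted p 0.0211), replicate 3 (adjusted p 0.0486) or LKO CL316243 replicate 4 (adjusted p 0.0247). It was not called without LKO CL316243 replicate 3 (1.19, adjusted p 0.0709). Fos gave 1.62 (adjusted p 0.261), and by slide 3.75, 0.84 and 0.27.

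A list of 47 other immediate early genes gave 44 that passed the filter. With CL316243, 22 (50%) were called higher and 0 lower in LWT (1 lower at an unadjusted p under 0.05). In LKO 30 (68.2%) were higher and 1 (2.27%) lower. Over all genes tested, 18.9% were higher and 19.4% lower in LWT, and 20.9% and 19.4% in LKO. The medians of the list were 0.66 and 1.13. Without LKO CL316243 replicate 3 the counts were 27 and 0 in LWT and 28 and 1 in LKO, and the LKO median was 0.91. All 21331 genes then gave 4406 and 4496 in LWT, and 4049 and 3786 in LKO. Gadd45g and Gadd45b, growth arrest and DNA damage proteins, rose by 4.06 (SE 0.64, adjusted p 3.45e-05) and 3.41 (SE 0.39, adjusted p 6.61e-07) in LWT. Socs3, the feedback inhibitor of cytokine receptors, rose by 2.99 in LWT (adjusted p 0.00107) and 3.01 in LKO (adjusted p 0.00101). Gadd45b rose by 2.79 (adjusted p 1.11e-05) and Btg2, an antiproliferative factor, by 2.78 (adjusted p 0.00138) in LKO. In the other genotype, Gadd45g rose by 2.11 (LKO, adjusted p 0.0114) and Btg2 by 1.84 (LWT, adjusted p 0.0254). Cyr61, a matricellular protein and a standard target of YAP, fell by 0.89 in LKO (SE 0.27, adjusted p 0.0102), with -0.40 in LWT (adjusted p 0.252).

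The interaction was called for 2 of these 44 genes higher (4.55%) and 1 lower (2.27%). Over all genes the shares were 2.17% and 3.24%, so these counts are close to the general share. Maff, a small Maf factor, gave 1.78 ± 0.39 more in LKO (SE, adjusted p 0.00763), with means of 0.11 ± 0.56 (SD, n = 6) in treated LWT and 1.81 ± 0.56 in treated LKO livers. Egr2, the other gene called higher, was well above background on 3 of 6 arrays in each group but treated LKO, where all 6 were. It passed the filter through treated LKO alone, so no size is given and its call is not read as a result. The limit also holds for Egr2 among the genes called higher with CL316243 in LKO. Dusp5, a phosphatase specific for ERK, gave -1.04 ± 0.24 (SE, adjusted p 0.0121), a smaller rise in LKO, with -1.43 ± 0.35 (SD) in treated LWT and -2.27 ± 0.36 in treated LKO livers. Under CL316243, 12 of the 44 were higher in LKO (27.3%, against 7.74% of all genes) and 2 lower (4.55%, against 8.17%). The largest were Gadd45a (1.81, adjusted p 0.0121) and Maff (1.71, adjusted p 0.000108), and the lower ones were Dusp5 (-0.84, adjusted p 0.00137) and Klf10 (-0.63, adjusted p 0.0499). Egr2 is among the 12, with the same limit. Under vehicle the count was 0 of 44 in limma's test, also at an unadjusted p under 0.05, against 0.398% of all genes called higher and 0.778% lower. Without LKO CL316243 replicate 3 the interaction was called for 4 higher and 1 lower (678 and 857 of all 21331 genes). Between treated genotypes 11 were then higher and 2 lower (1991 and 1967 of all genes).

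**Figure D3:**
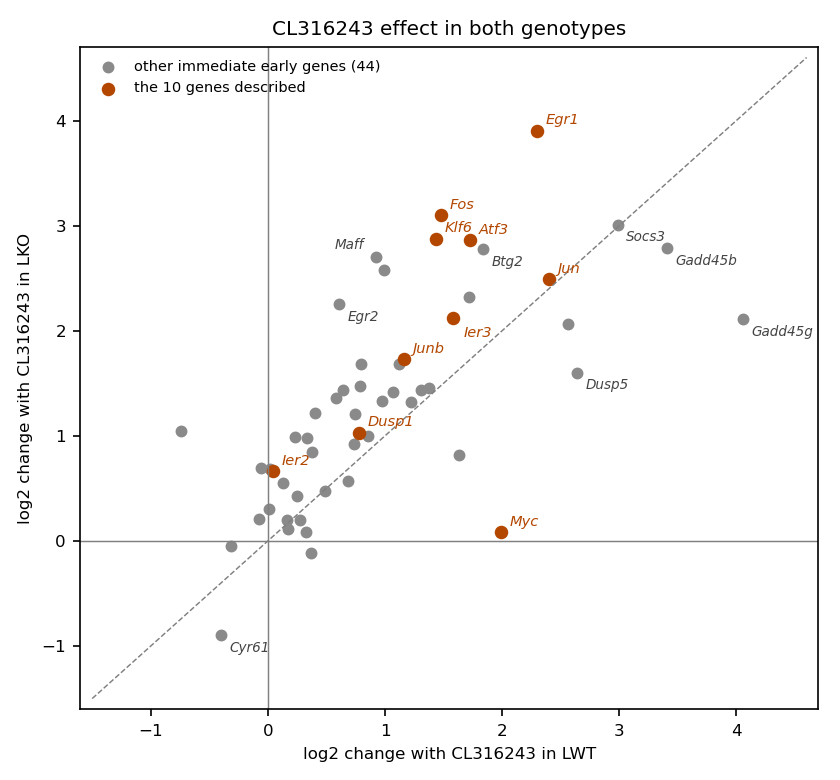
Each point is 1 gene, with its log2 change with CL316243 in LWT on the horizontal axis and in LKO on the vertical axis. Orange points are the 10 genes described and grey points the 44 other immediate early genes, and the dashed line marks equal change. Myc lies at 1.99 in LWT and 0.085 in LKO, and Egr1 at 2.30 and 3.90.

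Kinases and factors that act before these genes moved in both directions. Of 25 tested, 10 (40%) were higher and 3 (12%) lower with CL316243 in LWT, and 9 (36%) higher and 4 (16%) lower in LKO. All genes gave 18.9% and 19.4% in LWT, and 20.9% and 19.4% in LKO. The medians of the 25 were 0.15 and 0.083. Mkl1 and Mkl2, coactivators of serum response factor, rose by 0.74 (adjusted p 0.000556) and 0.73 (adjusted p 0.000216) in LWT and by 1.20 (adjusted p 3.71e-06) and 1.04 (adjusted p 5.98e-06) in LKO. The kinase Rps6ka3 rose by 0.53 (adjusted p 0.0153) and 0.79 (adjusted p 0.000710). Mapk9, which encodes JNK2, fell by 0.46 in LWT (adjusted p 0.000266) and by 0.59 in LKO (adjusted p 2.34e-05). Mapk3, which encodes ERK1, fell by 0.50 in LWT (adjusted p 0.00131) and by 0.36 in LKO (adjusted p 0.0158). In LKO, Rps6ka1 fell by 0.81 (adjusted p 0.0420, with -0.44 and adjusted p 0.288 in LWT) and Mapk8, which encodes JNK1, fell by 0.36 (adjusted p 0.00389, with -0.22 and adjusted p 0.0671 in LWT). The interaction was called for 0 of 25 in limma's test (6 at an unadjusted p under 0.05: 4 higher, 2 lower), and without LKO CL316243 replicate 3 for 1, lower. Between treated genotypes, 1 of 25 (4%) was higher in LKO and 1 (4%) lower (3 and 2 without LKO CL316243 replicate 3), against 7.74% and 8.17% of all genes. The lower one was Map2k2, which encodes the kinase MEK2, at -0.34 (adjusted p 0.000697).

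Binding partners and repressors of the 10 proteins were listed as 13 genes, of which 12 were tested. In LWT 4 (33.3%) were higher and 2 (16.7%) lower with CL316243, and in LKO 7 (58.3%) were higher and 1 (8.33%) lower. All genes gave 18.9% and 19.4% in LWT, and 20.9% and 19.4% in LKO. Jund, the third Jun protein, rose by 0.79 in LWT (adjusted p 0.000345) and 1.48 in LKO (adjusted p 4.21e-07), and was 0.81 higher in treated LKO than treated LWT livers with no overlap (adjusted p 0.000707). Jdp2, a repressor that dimerises with Jun proteins, rose by 0.76 (adjusted p 0.00942) and 0.97 (adjusted p 0.00138). Of the Myc network, Max, the obligate partner of Myc, rose by 0.46 in LWT (adjusted p 0.000187) and 0.48 in LKO (adjusted p 0.000127), and the antagonist Mxi1 fell by 0.50 in LWT (adjusted p 0.000106) and by 0.31 in LKO (adjusted p 0.00768). Mnt, another antagonist, rose by 0.69 in LKO (adjusted p 0.000139), with 0.041 in LWT (adjusted p 0.828), and its change differed between genotypes by 0.65 (adjusted p 0.0295). Mxd1, a further antagonist, was 0.93 higher in treated LKO than treated LWT livers (adjusted p 0.00924). Nab2, a corepressor of Egr proteins, fell by 0.90 in LWT (adjusted p 0.00415), with -0.40 in LKO (adjusted p 0.188). Between treated genotypes 4 of the 12 (33.3%) were higher in LKO and 0 lower (7 and 0 at an unadjusted p under 0.05), against 7.74% and 8.17% of all genes. These counts were 6 and 0 without LKO CL316243 replicate 3.

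In whole liver RNA, fewer cells of a type and less RNA per cell cannot be told apart, and several cell types can carry immediate early transcripts. Some neutrophil markers moved with treatment in both genotypes, not all in the same direction. The summed linear signal of the 7 tested markers was 3.01 to 6.35 in LWT vehicle, 3.20 to 14.4 in LWT CL316243, 3.06 to 4.35 in LKO vehicle and 4.69 to 48.7 in LKO CL316243. S100a8, S100a9 and Retnlg were called higher in both genotypes, Elane also in LKO, and Ly6g and Camp were called lower in LWT. In these linear sums S100a9 weighs most, with a mean log2 level of 2.20 in treated LWT and 2.74 in treated LKO livers. Means of the other tested markers lay at -4.04 to 0.78 in the treated groups. The highest sum of all 24 livers, 48.7, belonged to LKO CL316243 replicate 3. In each treated group the pair of livers with the highest neutrophil sum (LWT replicates 1 and 3, LKO replicates 3 and 2) was also the highest pair for 7 of the 10 genes, a comparison chosen after the values were seen. The exceptions were Dusp1, Myc and Jun in LWT, and Dusp1, Myc and Klf6 in LKO. Replicate 4 had the lowest sum in both treated groups, at 3.20 and 4.69, and was lowest for 9 and 7 of the 10 genes. The share of all tested genes with the same highest pair was not counted. The 10 genes also correlated with each other within groups, so these counts are not independent observations. The part of neutrophils in the results was not tested.

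The cholangiocyte sum of 4 markers was 0.586 to 1.25 in LWT vehicle, 0.928 to 2.88 in LWT CL316243, 0.654 to 1.23 in LKO vehicle and 1.38 to 5.72 in LKO CL316243. The medians were 0.894 and 2.06 in LWT and 0.782 and 3.31 in LKO, beside neutrophil medians of 3.75 and 8.94 in LWT and 3.32 and 8.62 in LKO. Sox9 was the cholangiocyte marker called (1.47 in LWT, adjusted p 0.00168, and 2.18 in LKO, adjusted p 3.54e-05). The other 3, Krt19, Krt7 and Epcam, were not called in either genotype. The median log2 change of the 4 markers was -0.044 in LWT and 0.51 in LKO. These linear sums are mostly Sox9, whose mean log2 level was 0.65 in treated LWT and 1.42 in treated LKO livers. Means of the other 3 lay at -4.60 to -2.70 in the treated groups. The part of cholangiocytes was not tested. Of 9 Kupffer cell or macrophage markers, 0 were called in any of the 5 comparisons of limma's test (1 at an unadjusted p under 0.05, lower in LKO), and their sum ran from 72.7 to 155.5 over the 24 livers. Of 8 hepatocyte markers, 1 (12.5%) was higher and 0 lower in LWT, and 2 (25%) were higher and 1 (12.5%) lower in LKO, with sums of 2608 to 3509. Over all genes these shares were 18.9% and 19.4% in LWT, and 20.9% and 19.4% in LKO. No tested marker of any list was below background on every array of a group.

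Livers of 1 group also differed from each other in a shared way. After removal of the 4 group means, 31 of the 45 pairs of the 10 genes correlated over the 24 livers at an adjusted p under 0.05 (permutation of livers within groups, 100000 resamples, two-sided, adjusted over 45 pairs), and 24 did so by Spearman's rho. The median Pearson r was 0.61. The share among pairs of other genes was not computed, so the count is not read as a trait of these 10 genes. Genes outside the 10 also came close to them, such as Hip1r with Junb (r 0.95). The closest pair was Jun and Atf3 (r 0.86, permutation p 1e-05, the smallest these resamples can give, adjusted 0.000225, rho 0.81, adjusted permutation p 0.000900), and r was 0.81 without the 2 livers farthest from the median of Jun. Fos and Egr1 gave r 0.83 (adjusted permutation p 0.000225, rho 0.80, r 0.80 without the 2 farthest). Junb and Ier2 gave r 0.85 (adjusted permutation p 0.000450, rho 0.73, r 0.73 without the 2 farthest). Other pairs that passed fell further without the 2 farthest livers. Ier3 with Myc went from 0.62 to 0.22, Jun with Junb from 0.60 to 0.35 and Ier2 with Klf6 from 0.66 to 0.37. Ier2, whose mean was not called with treatment, correlated with 8 of the other 9 genes. Dusp1 correlated with 0 of 9 (r from -0.12 to 0.39), and Myc with 4 of 9.

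The relation was weaker without treated LKO livers. Without that group 9 of 45 pairs passed, and without LKO CL316243 replicate 3 alone 18 passed. Left out in turn, the other groups gave 21 (LWT CL316243), 27 (LWT vehicle) and 34 (LKO vehicle). Each slide holds 2 livers per group, too few for a value of its own. With the mean of each group on each slide removed, the median r over the 45 pairs was 0.54, from -0.21 to 0.88, and Jun with Atf3 gave 0.87.

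**Figure D4:**
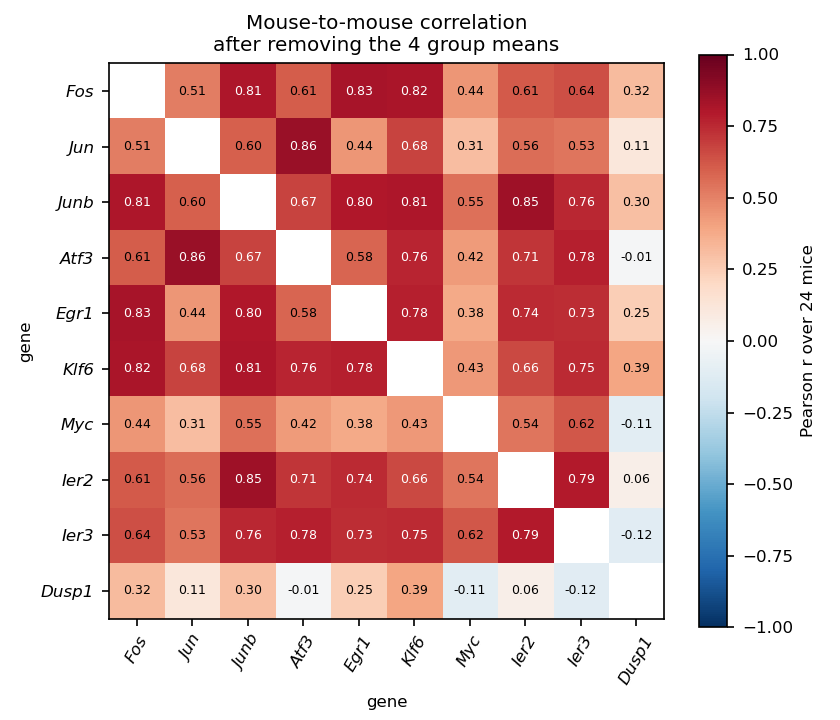
Each cell gives Pearson's r between the row gene and the column gene over 24 livers, after the mean of each of the 4 groups was subtracted, with red for positive and blue for negative values. The Dusp1 row stays between -0.12 and 0.39, and 30 of the 45 pairs exceed 0.5.

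By the same within-group measure, the genes most like each of the 10 were sought among 13997 others over 24 livers, as a description without a test. Junb was most like Csrnp1 (r 0.96), itself an immediate early nuclear protein, and Hip1r (0.95). Ier3 was most like Socs1 (0.96), a cytokine feedback inhibitor, and Heatr1 (0.94). For Klf6 these were Ctsl (0.91), the lysosomal protease cathepsin L, and Adcy1 (0.91), an adenylyl cyclase. Fos was nearest to Raph1 (0.89) and Rab18 (0.88), Egr1 to Hivep2 (0.89) and Limch1 (0.85), and Ier2 to Fastkd3 (0.90) and Chd1 (0.90). Mpv17, a mitochondrial inner membrane protein, was near both Atf3 (0.91) and Jun (0.81), with Rassf1 (0.86) and Sdc1 (0.82) beside it. Dusp1 was nearest to Trp53inp1 (0.83) and Rhobtb1 (0.82), and Myc to Csgalnact2 (0.84) and Sh3glb1 (0.83).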

How the data were processed

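Livers of 24 mice were profiled on single-colour Agilent arrays, and each was assigned to a group by its labelled genotype and treatment. The scanner tables hold processed intensities per spot, which the authors' scanner software (Agilent Feature Extraction, version 10.10.1.1 in the submitters' processing notes) had background-subtracted, per the file headers. The authors' series table, used as an alternative, holds log2 values as deposited. Its array percentiles differ by at most 0.0226, and 0 of its columns lacked a sample.

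Processed intensities were taken to log2, spots marked as outliers were removed, and the log2 values of the spots of a probe were averaged. These were scaled to the upper quartile (75th percentile) of all non-control spots on the array. Probes needed a signal well above background on 4 or more of the 6 arrays of some group and 3 or more values in each group. This left 32037 of 56605 probes, and the brightest kept probe represented each of 21331 genes. On arrays, the number of replicates and the signal over background limit precision. The median SE of a log2 difference was 0.13, and 0.19 for the interaction. One mean per group was fitted to 24 arrays with limma 3.58.1 in R 4.3.3, and 5 comparisons were adjusted by Benjamini-Hochberg. The fit was tested on simulated data. Correlations used Python 3.11.15 with scipy 1.17.1 and pandas 2.3.3.

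Probe positions are those of the array annotation (mm9). Promoters are from RefSeq, GRCm38.p6. The 10 genes and all lists were chosen with earlier results of these data known. Named in addition are the genes called with the largest change in each direction (up to 3 per treatment comparison and list, up to 2 in the others) and the 2 genes most like each of the 10; a gene this rule picks is not reported here. Nab1 had no probe of that name, and Fosl1, Egr3 and Arc did not pass the filter. Tf and Emr1 were matched as Trf and Adgre1, and Ngp and Cd79a were not tested. Alternatives covered scaling, background correction, the series table, the filter, single probes, blocks, the arrays fitted and leaving out each mouse. Slide with row as a block, lists without LKO CL316243 replicate 3 and correlations within slides were added after seeing the data. Replicate numbers of different groups were checked for pairing, and correlations of deviations ran from -0.18 to 0.42, both ends between the treated groups. These values do not settle whether the numbers pair mice, and the main fit treated mice as unpaired.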

Additional observations from a re-analysis of the deposited data

Results flagged for a closer look

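In groups of 6 livers, a liver was singled out where its gap to the next, as a share of the group's range, exceeded 0.625. This happened in 4 of 40 groups of the brightest probes, where chance gives about 1 in 20. LKO CL316243 replicate 3 was the high liver for Atf3 (3.42, share 0.638) and for Ier3 (0.84, share 0.66). LWT vehicle replicate 3 was high for Jun (2.34, share 0.742). LKO vehicle replicate 1 was high for Myc, at 1.06 with the next liver at -1.10 (share 0.887), and without it the LKO change in Myc was 0.46, not called. Among the other probes, 3 of 16 groups were singled out, all of the third Junb probe, which was above background on 1 of 6 arrays per group: LKO CL316243 replicate 3 (share 0.851), LKO vehicle replicate 2 (0.75) and LWT vehicle replicate 1 (0.787).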

How the results depend on the processing

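Of 162 values for changes called in the report, under settings other than leaving out a mouse, 155 stayed called in the same direction and 7 lost the call. Of 432 with 1 mouse left out, 416 stayed and 16 lost it, and 0 of either kind reversed. The call most open to change was the LWT increase, where between 5 (without LWT CL316243 replicate 1) and 9 genes were called with 1 mouse left out. Fos in LWT was also lost without the filter on dim probes (adjusted p 0.0636) and in the 12 LWT arrays alone (0.0781), Dusp1 without the filter (0.0669) and Atf3 with normexp (1.12, 0.0602). Genes higher in treated LKO than treated LWT numbered 2 with a replicate block, 0 with only the groups compared and 1 to 3 with 1 mouse left out. For the interaction, normexp, the series table and the replicate block each called 1 gene higher, the replicate block called 1 lower, and leaving out 1 mouse gave 0 to 1 in each direction. The replicate block also added Fos between treated genotypes (adjusted p 0.0222) and Ier2 in LKO (adjusted p 0.0430). Whether replicate numbers pair the mice was not settled. Correlated pairs numbered 9 without the group LKO CL316243 and 18 without its replicate 3.

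The values below changed sign, none of them called. Ier2 under vehicle (-0.00090) was 0.0067 with normexp and 0.0024 in the series table, and Ier3 under vehicle was -0.0060 with normexp. With 1 mouse left out, the ranges were -0.082 to 0.14 for Ier2 in LWT, -0.088 to 0.083 for Ier2 under vehicle and -0.053 to 0.12 for Ier3 under vehicle. They were -0.025 to 0.95 for Ier3 between treated genotypes (0.56 with all mice) and -0.048 to 0.93 for the Ier3 interaction (0.54), both reversed without LKO CL316243 replicate 3 alone, -0.074 to 0.19 for the Jun interaction and -0.25 to 0.46 for Myc in LKO. The cause was not tested. Dim probes limit Ier3, the second Junb probe and Egr2, where vehicle signal lay near background.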
